A study of Bos taurus with 18 samples.

Results

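LGR4, LGR5 and LGR6, the R-spondins RSPO1, RSPO2 and RSPO3, the ubiquitin ligases RNF43 and ZNRF3, and the WNT target AXIN2 were followed along the epididymis of 6 Holstein bulls. These 9 genes were taken from an array of 26773 probe sets, of which 18457 named exactly 1 gene and together covered 18010 genes. All 9 were found, with 10 probe sets, because RSPO3 had 2. Each gene was read from its brightest probe set by the mean over all 18 arrays, and all 9 passed the filter on dim probe sets, a mean of at least 5 on the log2 scale. The group of genes was drawn up with earlier results of these data known and LGR5 heads it, so the levels of LGR5 are given as a description and it enters no count of genes below.

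The 6 groups were the caput, corpus and cauda of 3 bulls of high fertility and of 3 bulls of medium-low fertility, with 3 arrays each. All bulls were sexually mature, 51 to 71 months old, untreated as far as the labels say, and of 1 breed, Holstein. Fertility was an adjusted index of the cows that had not returned to service at 56 days, from 282 to 486 first inseminations per bull. The organs came from a slaughterhouse, the bulls having been chosen for slaughter by the milk yield of their daughters, and a small frozen piece of each segment gave the RNA. Such a piece holds duct epithelium, the muscle around it, connective tissue, vessels and luminal sperm, so fewer cells of a type and less RNA per cell cannot be told apart. The labels number the replicates but do not say which arrays came from the same bull.

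R-spondins are secreted proteins that bind the receptors LGR4, LGR5 and LGR6. The complex draws RNF43 and ZNRF3 off the cell surface, and because these ligases mark Frizzled receptors for removal, their loss leaves the cell more responsive to WNT ligands. AXIN2 is switched on by beta-catenin and belongs to the complex that destroys it, which makes it a feedback gene. LGR5 is best known as a marker of stem cells in the mouse intestine, and in mice the loss of Lgr4 leaves a short and poorly coiled epididymal duct.

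Values are RMA signals on the log2 scale, where a difference of 1 is a doubling, and levels of different probe sets are not set against each other. The values carry no call of which probe sets were detected, and a low signal may be background. Arrays of the 3 high fertility groups correlated with their own group at r of 0.986 to 0.990, over all probe sets. In the medium-low caput, replicates 1 and 2 correlated with each other at 0.98 and with replicate 3 at 0.951 and 0.958. The mean of 8 fibroblast markers was 9.94, 10.17 and 9.28 in medium-low caput replicates 1, 2 and 3, against 8.75 to 8.93 in the high fertility caput. POSTN, periostin, carried most of that gap, at 6.38 to 13.37 against 5.24 to 5.51. The next largest gap in group means was that of COL3A1, at 9.11 against 8.53, and DCN, decorin, overlapped at 12.43 to 12.56 against 12.26 to 12.69. Germ cell markers there ranged from 6.72 to 9.66, against 8.24 to 8.42. Of the 8 markers of epididymal duct, 5 were measured, and their mean ran from 9.47 to 12.05 over all arrays. The 5 did not move together. In the high bulls, LCN6 went from a mean of 13.27 in the caput to 6.77 in the cauda, and RNASE10 from 12.06 to 6.45. ELSPBP1 went from 13.36 to 9.99 and CRISP1 from 12.5 to 11.72, while CD52 rose from 8.18 to 13.39. Of 4 principal cell markers 3 were measured. AQP9, a water channel, stood at 12.3 to 13.04 and SLC9A3, a sodium and proton exchanger, at 6.05 to 6.78 on all arrays. CFTR, an anion channel, had group means of 9.25 and 9.41 in the caput, 5.41 and 5.61 in the corpus and 8.26 and 7.95 in the cauda, high bulls first. No array was identical to another.

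LGR5 (probe set 12860048) was at its highest in the cauda of the high fertility bulls. There its 3 arrays read 9.60, 8.09 and 9.41. In the cauda of the medium-low bulls they read 7.60, 6.88 and 5.79, so the 2 groups did not overlap. The corpus was narrow and alike in both, with 6.33, 6.47 and 6.72 in the high and 6.39, 6.36 and 6.12 in the medium-low bulls. The caput read 5.08, 5.45 and 5.86 in the high and 6.67, 6.23 and 5.47 in the medium-low bulls. In the high fertility bulls the 3 segments were therefore separate, each array of the corpus lying above each of the caput and each of the cauda above each of the corpus. In the medium-low bulls the segments overlapped, and cauda replicate 3 lay below every corpus array.

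**Figure D1:**
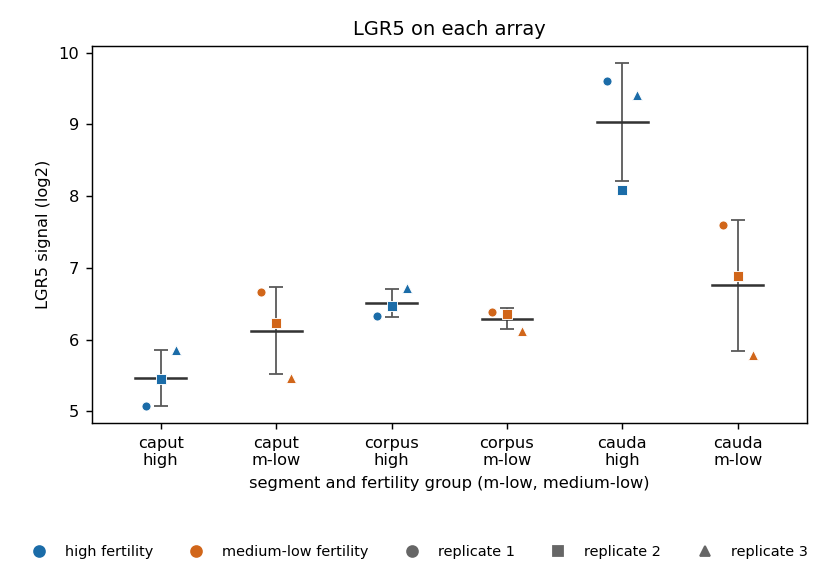
LGR5 signal (log2, y axis) on each of the 18 arrays by segment and fertility group (x axis), with the group mean as a bar and 1 SD as whiskers (n = 3). The 3 high fertility cauda arrays, at 8.09 to 9.60, lie above all other arrays, the highest of which reads 7.60.

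The group means of LGR5, in rising order, were 5.46 ± 0.392 (SD, n = 3) in the high caput, 6.12 ± 0.607 in the medium-low caput, 6.29 ± 0.151 in the medium-low corpus, 6.51 ± 0.197 in the high corpus, 6.75 ± 0.911 in the medium-low cauda and 9.03 ± 0.821 in the high cauda. Neighbours in this order overlapped in their arrays, except the high cauda, which stood clear of the medium-low cauda below it. The means spanned 3.57, against 0.22 to 1.23 for the other 8 genes.

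Averaged over both fertility groups, LGR5 was 2.10 higher in the cauda than in the caput (SE 0.309) and 1.49 higher than in the corpus. Most of this lay in the high fertility bulls. In them the cauda exceeded the caput by 3.57 (95% confidence interval 2.63 to 4.50) and the corpus by 2.52. In the medium-low bulls the same differences were 0.63 (-0.30 to 1.57) and 0.46. The corpus exceeded the caput by 1.05 in the high and 0.17 in the medium-low bulls.

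Seen within a segment, the medium-low cauda was lower than the high cauda by a difference of -2.28 (SE 0.437, 95% confidence interval -3.21 to -1.34), which is 4.85-fold. By size this ranked 3 of 26773 probe sets in that comparison. LGR5 was taken up with earlier results of these data known, so its rank is a description and no support. The difference did not pass limma's test across all probe sets, with an adjusted p of 0.245. Only 3 probe sets of that comparison passed, and 1555 had an unadjusted p under 0.05. The caput differed by 0.66 the other way (-0.27 to 1.59), which without medium-low caput replicates 1 and 2 became 0.01, and the corpus by -0.22 (-1.15 to 0.71). The fertility difference in the cauda minus that in the caput was -2.93 (SE 0.618). The F test of whether the fertility difference varied between segments gave an adjusted p of 0.539. Leaving out any 1 array gave a cauda difference of -2.75 to -1.79, the smallest without medium-low cauda replicate 3. The main fit pools the spread of all groups, although LGR5 varied more in the cauda than in the corpus. Fitted on the cauda arrays alone, the cauda difference had an SE of 0.545 and an adjusted p of 0.804 in limma. Fitted on the corpus arrays alone, the corpus difference had an SE of 0.134.

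Marker signals of several cell types differed along the duct as well. The mean of 7 measured smooth muscle markers, of 8 listed, was 12.12 to 12.56 in the high cauda and 11.62 to 12.51 in the medium-low cauda, against 10.52 to 11.23 in caput and corpus. Over the 18 arrays, which share bulls and segments, its r with LGR5 was 0.798. Among the other lists r was -0.779 for duct markers, 0.652 for macrophages, 0.649 for endothelium and -0.0556 for principal cells. The duct mean joins genes that differ by segment, with LCN6 and RNASE10 falling and CD52 rising towards the cauda. It is no measure of the amount of duct. Between the fertility groups of the cauda the smooth muscle ranges overlapped. So did those of fibroblasts (9.44 to 10.08 high, 9.43 to 10.52 medium-low), endothelium (8.56 to 8.92 and 8.45 to 8.88), macrophages (8.12 to 8.26 and 8.07 to 8.31), basal cells (8.58 to 8.67 and 8.49 to 8.84) and principal cells (8.97 to 9.12 and 9.01 to 9.16). Medium-low cauda replicate 3, the lowest of the cauda arrays for LGR5, was also the lowest of them for smooth muscle, at 11.62. The same array was the lowest for fibroblasts (9.43), endothelium (8.45) and macrophages (8.07). It was the highest of the cauda arrays for basal cells (8.84) and duct markers (10.05). The part of tissue makeup in the LGR5 levels was not tested.

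The 5 genes outside the group that followed it most closely were taken as those with the highest Pearson correlation with LGR5 over the 18 arrays among 2636 probe sets whose SD was at least 0.5. They were TLR5, the receptor for bacterial flagellin (r = 0.923, Spearman's rho 0.806), DNASE1L3, a secreted DNase (0.921, rho 0.732), CGREF1 (0.916, rho 0.703), the mucin MUC1 (0.915, rho 0.680) and MSLN, mesothelin (0.914, rho 0.783). The correlations are descriptions of 18 arrays in which the 3 high cauda arrays lie apart. With each array taken as its deviation from the group mean, r was 0.523 for TLR5 and 0.717 to 0.797 for the other 4.

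MUC1 read 9.24, 7.77 and 8.81 in the high cauda and 6.84, 6.17 and 6.04 in the medium-low cauda. Its high cauda arrays lay above all other arrays. TLR5 read 8.81, 8.92 and 8.74 against 7.68, 7.56 and 6.64. DNASE1L3 read 9.40, 9.02 and 9.77 against 8.43, 8.35 and 6.98. CGREF1 read 9.36, 8.56 and 9.06 against 8.33, 8.31 and 7.33. Since these genes were picked for their likeness to LGR5 over the same arrays, the split that they share with it follows from the choice. MSLN read 8.91, 6.78 and 8.80 against 7.83, 6.60 and 5.72, and its groups overlapped.

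Because mesothelin marks the mesothelium that covers the organ, 4 more mesothelial markers were read, a choice made after MSLN had been seen. Their group means ran from 6.90 to 7.10 for UPK3B, 5.15 to 5.35 for CALB2, 6.75 to 7.43 for WT1 and 6.58 to 7.30 for LRRN4. None of the 4 had its highest group mean in the high cauda.

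Among the remaining 8 genes, 3 passed limma's test between corpus and caput at an adjusted p under 0.05, which is 37.5% of them against 33.2% of all probe sets. Cauda against caput gave 2 of 8 (25.0% against 32.2%) and cauda against corpus 2 of 8 (25.0% against 24.3%). These shares are close to the background, so the counts say nothing particular about the group. Segments were compared as 6 arrays against 6, averaged over the fertility groups. The fit without 3 arrays, given next and used again below, was chosen after the data had been seen. Without medium-low caput replicates 1 and 2 and medium-low cauda replicate 3, the counts were 4, 2 and 3, and the shares of all probe sets 32.3%, 32.1% and 26.4%. In the high fertility bulls alone 3, 2 and 0 of the 8 passed (19.6%, 22.7% and 14.5% of all probe sets), and in the medium-low bulls alone 2, 1 and 0 (17.7%, 20.5% and 10.1%). Arrays did not overlap for 2, 1 and 0 of the 8 genes, and at 15.1%, 15.6% and 14.3% of all probe sets.

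**Figure D2:**
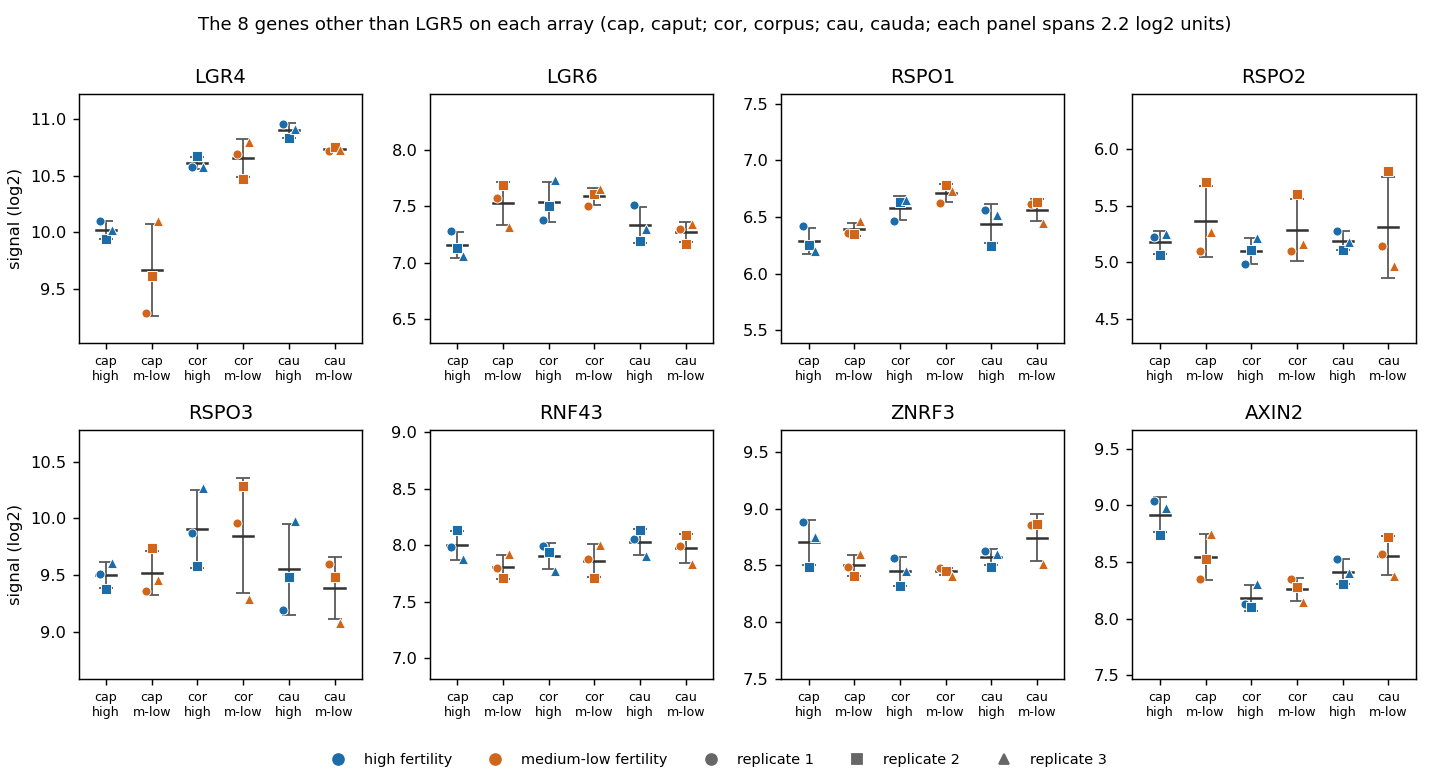
Signal (log2, y axes) of the 8 genes other than LGR5 on each of the 18 arrays by segment and fertility group (x axes), with group means as bars and 1 SD as whiskers (n = 3). LGR4 is lowest in the caput of both fertility groups, AXIN2 is highest in the high fertility caput at 8.74 to 9.04, and RNF43 stays between 7.71 and 8.13.

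LGR4, the receptor that the mouse duct needs to coil, rose from the caput onwards. Its arrays read 10.10, 9.94 and 10.02 in the high caput, 10.58, 10.67 and 10.58 in the high corpus and 10.96, 10.83 and 10.91 in the high cauda. In the medium-low bulls they read 9.29, 9.61 and 10.10, then 10.69, 10.47 and 10.80, then 10.72, 10.75 and 10.73. Every corpus and cauda array thus lay above every caput array in both groups. The rise over the caput was 0.79 in the corpus (SE 0.105, adjusted p = 5.18e-05) and 0.97 in the cauda (SE 0.105, adjusted p = 4.74e-06), a fold of 1.72 and 1.96. Both passed within the high fertility bulls alone, by 0.59 and 0.88. Cauda and corpus differed by 0.19 (95% confidence interval -0.04 to 0.41), which did not pass.

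The 3 genes most like LGR4 over the 18 arrays were FAXC (r = 0.970), PLEK2, a pleckstrin relative (0.968), and IKZF1, the lymphoid transcription factor Ikaros (0.962). LGR4 and LGR5 correlated at 0.526, and within groups, as deviations from the means, at -0.352. The r of LGR5 with the other 7 genes ran from -0.269 to 0.208.

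LGR6, the remaining receptor of R-spondins, varied little. It read 7.28, 7.13 and 7.06 in the high caput, 7.38, 7.50 and 7.73 in the high corpus and 7.51, 7.19 and 7.30 in the high cauda. The medium-low bulls gave 7.57, 7.69 and 7.32 in the caput, 7.50, 7.61 and 7.65 in the corpus and 7.30, 7.17 and 7.34 in the cauda. The corpus was its highest segment, and the cauda lay below it by a difference of -0.26 (SE 0.0845, adjusted p = 0.0347), with some overlap of arrays. That call was lost on leaving out any of 8 of the 18 arrays, at an adjusted p of up to 0.0917. Corpus against caput was 0.22 (adjusted p = 0.0571), made of 0.38 in the high bulls (adjusted p = 0.0357) and 0.06 in the medium-low bulls (adjusted p = 0.781). It was a call at the same value with 1 probe set per gene or with the dim ones filtered out, and 0.14 to 0.16 without a call under the 3 other scalings.

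Of the R-spondins, RSPO1 was the 1 that passed a test, in the corpus against the caput. It read 6.42, 6.25 and 6.20 in the high caput and 6.46, 6.63 and 6.65 in the high corpus. The medium-low bulls gave 6.36, 6.35 and 6.46 in the caput and 6.62, 6.78 and 6.73 in the corpus. All 6 corpus arrays reached or exceeded the highest caput array at 2 decimals, and the 2 sides did not overlap. The difference was 0.31 (SE 0.0712, adjusted p = 0.00411), a 1.24-fold step at a low signal, and it was 0.19 (adjusted p = 0.0367) with cyclic loess. It was 0.29 in the high bulls alone (adjusted p = 0.0548) and 0.32 in the medium-low bulls alone (adjusted p = 0.0375). The cauda, at 6.24 to 6.63, lay between and passed no test.

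RSPO3, read by 2 probe sets that correlated at 0.981, had its highest values in the corpus without passing a test. The brighter one (12900966) read 9.51, 9.38 and 9.61 in the high caput, 9.87, 9.58 and 10.27 in the high corpus and 9.19, 9.48 and 9.98 in the high cauda. In the medium-low bulls it read 9.36, 9.74 and 9.46, then 9.96, 10.29 and 9.29, then 9.60, 9.48 and 9.08. Medium-low corpus replicate 3, at 9.29, lay below every caput array, while the other 5 corpus arrays were at 9.58 or more. Corpus minus caput was 0.37 (95% confidence interval -0.01 to 0.75, adjusted p = 0.124) and cauda minus corpus -0.41 (adjusted p = 0.111). Without that 1 array they were 0.51 (adjusted p = 0.0271) and -0.55 (adjusted p = 0.0242). The second probe set gave 0.39 and -0.41, neither passing.

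RSPO2 stayed at a low signal, 4.98 to 5.28 in the high fertility bulls. The medium-low bulls read 5.10, 5.71 and 5.27 in the caput, 5.10, 5.60 and 5.16 in the corpus and 5.14, 5.81 and 4.97 in the cauda. Replicate 2 was the highest array in each of these 3 groups, and no comparison passed. RSPO4, the remaining R-spondin, ran from 7.21 to 7.73 over all arrays and passed no test either.

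The ligases were nearly flat. RNF43 ran from 7.71 to 8.13 over all arrays, with group means within 0.22 of each other. ZNRF3 ran from 8.32 to 8.88. Its cauda exceeded its corpus by 0.21 (adjusted p = 0.0757), with medium-low cauda arrays at 8.86, 8.87 and 8.51 against 8.48, 8.45 and 8.41 in the corpus. That difference passed without medium-low cauda replicate 3 (adjusted p = 0.0196), with array medians subtracted (0.0426) and with array weights (0.0373).

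AXIN2, the feedback gene, was highest in the caput of the high fertility bulls. It read 9.04, 8.74 and 8.98 there, 8.13, 8.10 and 8.31 in the high corpus and 8.53, 8.31 and 8.40 in the high cauda. In the medium-low bulls it read 8.35, 8.53 and 8.75, then 8.35, 8.28 and 8.15, then 8.57, 8.72 and 8.38. The corpus fell below the caput by 0.51 on the log2 scale (SE 0.0872, adjusted p = 0.000409). In the high bulls alone the difference was -0.74 (adjusted p = 0.00071), and in the medium-low bulls alone -0.28 (adjusted p = 0.131). Cauda minus caput was -0.25 (adjusted p = 0.042), made of -0.51 in the high and 0.02 in the medium-low bulls, and the call was lost without any of 10 of the 18 arrays (adjusted p up to 0.101). Cauda minus corpus was 0.27 (adjusted p = 0.0361), a call lost without any of 8 arrays (adjusted p up to 0.089).

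**Figure D3:**
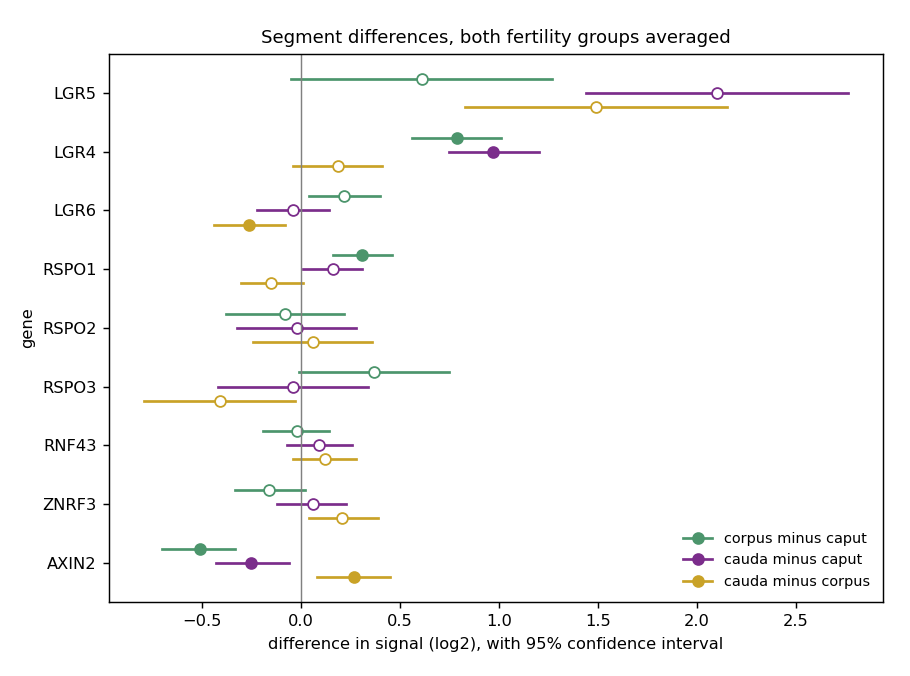
Differences between segments (log2, x axis), averaged over both fertility groups, for each of the 9 genes (y axis), with 95% confidence intervals. Filled points passed the adjusted p threshold and open points did not. LGR5 is open throughout because it is given as a description. LGR4 lies at 0.79 and 0.97 above the caput.

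Between the fertility groups none of the 8 genes passed in any segment. In limma, 3 of the 8 had an unadjusted p under 0.05 in the caput and 0 in the corpus and in the cauda. Of all probe sets 0.213% passed in the caput, 0.00374% in the corpus and 0.0112% in the cauda, while 5580, 1182 and 1555 had an unadjusted p under 0.05. The 3 genes in the caput were LGR4, at -0.35 in medium-low against high (95% confidence interval -0.67 to -0.03, adjusted p = 0.191), LGR6, at 0.37 (adjusted p = 0.0962), and AXIN2, at -0.38 (adjusted p = 0.1). LGR6 was the gene whose caput arrays did not overlap, with 7.32 to 7.69 against 7.06 to 7.28. In the cauda the arrays of LGR4 did not overlap, with 10.72 to 10.75 against 10.83 to 10.96, a difference of -0.17 (adjusted p = 0.961). Arrays did not overlap at 18.5% of all probe sets in the caput, 11.3% in the corpus and 11.6% in the cauda.

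The caput values rested on medium-low replicates 1 and 2. Without replicate 3 of that group, all 3 genes passed, LGR4 at -0.57 (adjusted p = 0.00213), LGR6 at 0.48 (adjusted p = 0.013) and AXIN2 at -0.48 (adjusted p = 0.0156), but so did 17.6% of all probe sets. With arrays weighted by their quality the same 3 genes passed, and 18.6% of all probe sets. Without replicates 1 and 2 the differences were 0.08, 0.16 and -0.17, and none passed, with 0.0112% of all probe sets. The interaction of segment and fertility gave 0 of 8 genes, against 0.00374% of all probe sets, with AXIN2 as the 1 gene at an unadjusted p under 0.05 (0.0173).

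**Figure D4:**
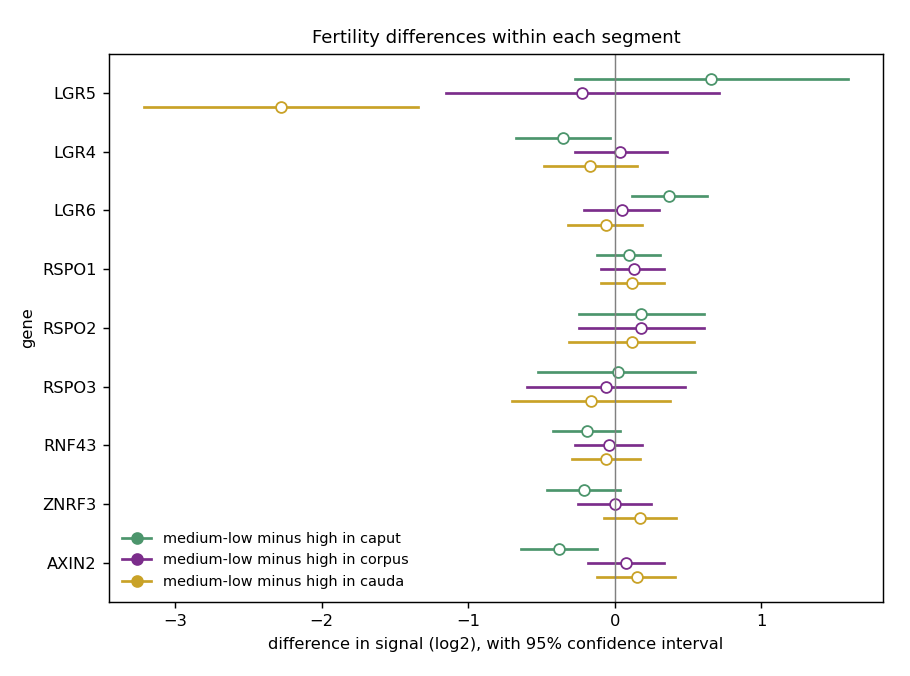
Differences between medium-low and high fertility (log2, x axis) within each segment for each of the 9 genes (y axis), with 95% confidence intervals and 3 arrays on each side. All points are open, since none of the other 8 genes passed and LGR5 is given as a description. The LGR5 cauda difference of -2.28 lies apart from all others.

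The rest of the WNT pathway was read from 90 further genes listed by role, of which 85 were measured. Between corpus and caput 31 passed, 24 higher and 7 lower in the corpus (36.5% against 33.2% of all probe sets). Cauda against caput gave 31, 21 higher and 10 lower (36.5% against 32.2%), and cauda against corpus 22, 14 higher and 8 lower (25.9% against 24.3%). Without the 3 arrays named above the counts were 38, 33 and 28. By direction, 19.5% of all probe sets passed as higher and 13.7% as lower in the corpus against the caput, 17.2% and 15.1% in the cauda against the caput, and 12.1% and 12.3% in the cauda against the corpus. The genes named below had the largest differences in each list.

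Of 18 WNT ligands measured, 9 rose and 0 fell in the corpus against the caput, with a median difference of 0.22 against 0.06 for all probe sets. With array medians subtracted 5 rose, with cyclic loess 4 and with quantile normalization 5, and 0 fell under each, where 12.2%, 13.9% and 16.2% of all probe sets passed as higher. WNT2B, which can signal through beta-catenin, rose by 0.64 (adjusted p = 0.00138), from a caput range of 7.87 to 8.81 to a corpus range of 8.94 to 9.34. It was the 1 ligand that passed between cauda and caput, at 0.65 (adjusted p = 0.00102). WNT6 rose by 0.34 and WNT1 by 0.32 in the corpus. In the cauda against the corpus 3 ligands fell and 0 rose, WNT5B by 0.29, WNT6 by 0.28 and WNT9B by 0.25. Of the 2 genes for ligand release, WLS, which carries WNT proteins to the surface, fell by 0.32 in the corpus against the caput (-0.20 and no call without the 3 arrays), and PORCN, which attaches their lipid, rose by 0.44 in the cauda against the caput.

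Of 15 Frizzled and co-receptor genes, 2 rose and 1 fell in the corpus against the caput, and 3 rose and 2 fell in the cauda against the caput. Cauda against corpus gave 1 higher and 1 lower. FZD1 belonged to the cauda. It read 9.39, 9.19 and 9.64 in the high cauda and 9.27, 9.32 and 8.48 in the medium-low cauda, against 7.70 to 8.43 on all caput and corpus arrays. The difference was 1.20 against the caput (SE 0.142, adjusted p = 1.13e-05) and 0.97 against the corpus (adjusted p = 1.34e-04). FZD7 rose by 0.51 in the corpus and 0.71 in the cauda, and FZD4 by 0.46 and 0.38, each against the caput. LRP5, a co-receptor of Frizzled, fell by 0.63 in the cauda against the caput and by 0.52 against the corpus. Without medium-low caput replicates 1 and 2 the former was -0.34 (adjusted p = 0.0485). FZD5 fell by 0.86 in the corpus and 0.98 in the cauda, but medium-low caput replicates 1 and 2 stood at 9.94 and 9.41 while the remaining caput arrays ran from 7.62 to 8.14. Without them and medium-low cauda replicate 3 the differences were -0.34 and -0.49, both still passing. NDP, the Frizzled ligand norrin, rose by 0.30 in the cauda against the caput (adjusted p = 0.0381), at a low signal with group means of 5.26 to 5.73.

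Among 14 secreted inhibitors, 6 rose and 1 fell in the corpus against the caput, and 4 rose and 0 fell in the cauda. Against the corpus 2 rose and 0 fell in the cauda. The split in the corpus turned with the scaling, to 1 higher and 2 lower with array medians subtracted and 2 higher and 3 lower with cyclic loess or quantile normalization. It was 3 higher and 3 lower without the 3 arrays. SFRP4, which binds WNT proteins, stepped up along the duct. It read 6.47 to 7.05 in the caput, 6.82 to 7.83 in the corpus and 7.72 to 8.69 in the cauda. The cauda exceeded the caput by 1.56 (SE 0.157, adjusted p = 2.37e-06) and the corpus by 1.02. DKK2, an LRP antagonist, rose by 0.60 in the corpus and 0.96 in the cauda, FRZB by 0.31 in the corpus and DKK1 by 0.48 in the cauda, all against the caput. FRZB and DKK1 had low signals, with group means of 5.86 to 6.33 and 5.77 to 6.39.

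DKK3, a divergent Dickkopf relative, was lowest in the corpus, where it fell by 1.16 against the caput (SE 0.167, adjusted p = 9.62e-05), and the cauda exceeded the corpus by 0.92. Most of that fall lay in the high bulls, with group means of 9.86 in the caput and 7.95 in the corpus. In the medium-low bulls the means were 8.53 and 8.12, and the arrays of the 2 segments overlapped. DKK3 was the 1 gene of the lists that passed between fertility groups. Its caput arrays read 9.74, 10.17 and 9.66 in the high and 8.13, 8.54 and 8.92 in the medium-low bulls, with no overlap. The difference was -1.33 (SE 0.236, adjusted p = 0.0427). The call was lost under 21 of 29 other settings, among them the fit without medium-low caput replicates 1 and 2, at -0.94 (adjusted p = 0.974).

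Of 19 mediators inside the cell, 3 rose and 3 fell in the corpus against the caput, and 4 rose and 5 fell in the cauda. Against the corpus 5 rose and 2 fell in the cauda. TCF7, a partner of beta-catenin on DNA, marked the caput. It read 11.31, 11.02 and 11.40 in the high caput and 9.62, 9.54 and 11.09 in the medium-low caput, against 8.13 to 8.51 on all other arrays. It fell by 2.46 in the corpus (SE 0.201, adjusted p = 4.27e-07) and by 2.32 in the cauda (adjusted p = 5.75e-07), and without the 3 arrays the differences were -2.96 and -2.82. TCF7L2, of the same family, ran the other way, rising by 0.32 in the corpus and 0.71 in the cauda, which exceeded the corpus by 0.39.

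BTRC, which targets beta-catenin for destruction, fell by 0.67 and 0.58 in the corpus and cauda. CTNNB1, beta-catenin itself, rose by 0.21 in the corpus against the caput (adjusted p = 0.0415), a call lost under 13 of 28 other settings. It fell by 0.59 in the cauda against the corpus (adjusted p = 3.81e-05), with 11.53 to 11.68 in the cauda and 12.07 to 12.25 in the corpus. BCL9L, a co-activator of beta-catenin, rose by 0.57 in the cauda against the caput and by 0.72 against the corpus, while its relative BCL9 fell by 0.60 against the caput. The nuclear cofactor PYGO2 fell by 0.32 and the Dishevelled gene DVL2 rose by 0.25 in the corpus against the caput. AXIN1, the scaffold of the destruction complex, rose by 0.21 in the cauda against the caput. Against the corpus DVL3 rose by 0.29 and the kinase GSK3B fell by 0.20 in the cauda.

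Feedback and target genes had the highest share of calls of the lists in the cauda. The lists were chosen with earlier results of these data known, so the share is a description. AXIN2, a feedback gene at -0.25 in cauda minus caput, is not in this list. Of its 15 genes measured, 7 rose and 3 fell against the caput (66.7% against 32.2% of all probe sets), with a median difference of 0.38 against 0.03. The split was 7 and 3 under each of the 3 other scalings and 7 and 4 without the 3 arrays. Against the corpus 6 rose and 2 fell (53.3% against 24.3%), and corpus against caput gave 4 and 1. MYC rose by 0.59 in the corpus and 0.98 in the cauda (SE 0.0895, adjusted p = 9.32e-07). Its caput arrays had a low signal, at 6.07 to 6.50, and its cauda arrays read 7.23 to 7.46. CCND1, cyclin D1, rose by 0.81 in both the corpus and the cauda against the caput.

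TNFRSF19, a receptor known as a WNT target, rose by 0.99 in the cauda against the caput and 0.89 against the corpus. It read 8.95, 8.91 and 9.16 in the high cauda and 9.07, 8.32 and 7.79 in the medium-low cauda. NKD1, a feedback inhibitor acting on Dishevelled, rose by 1.16 in the cauda against the corpus (adjusted p = 3.28e-04), with high cauda arrays at 9.54, 9.31 and 9.81 and medium-low ones at 9.41, 9.42 and 8.87. BAMBI, a decoy receptor of the TGF-beta family, rose by 0.92 against the corpus, with 7.59, 7.33 and 7.52 in the high cauda and 7.43, 6.95 and 5.70 in the medium-low cauda. For all 3 of these genes medium-low cauda replicate 3 was the lowest cauda array, as it was for LGR5.

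Against these, APCDD1, a membrane inhibitor of WNT, fell by 0.53 in the corpus and 0.46 in the cauda, and EPHB2, a receptor kinase of intestinal crypts, fell by 0.51 in the cauda against the caput and by 0.48 against the corpus. ASCL2, a transcription factor of mouse intestinal stem cells that LGR5 also marks, fell by 0.77 in the cauda against the caput (adjusted p = 0.03), where the high caput read 8.86, 8.87 and 9.48 and the medium-low caput 7.20, 7.12 and 8.92. Its medium-low group means were 7.74 in the caput and 7.48 in the cauda. Its difference was -1.28 without the 3 arrays and -0.48 without medium-low caput replicate 3, and the call was lost under 5 of 28 other settings (adjusted p up to 0.0786). NKD2 rose by 0.45 in the corpus against the caput and fell by 0.41 in the cauda against the corpus. Of the smaller differences given for the lists, the calls of BCL9, FRZB, NDP, WNT5B and GSK3B, of DKK2 and TCF7L2 in the corpus, of FZD4 in the cauda and of WNT6 in the cauda against the corpus were lost under 9 to 15 of 28 other settings.

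**Figure D5:**
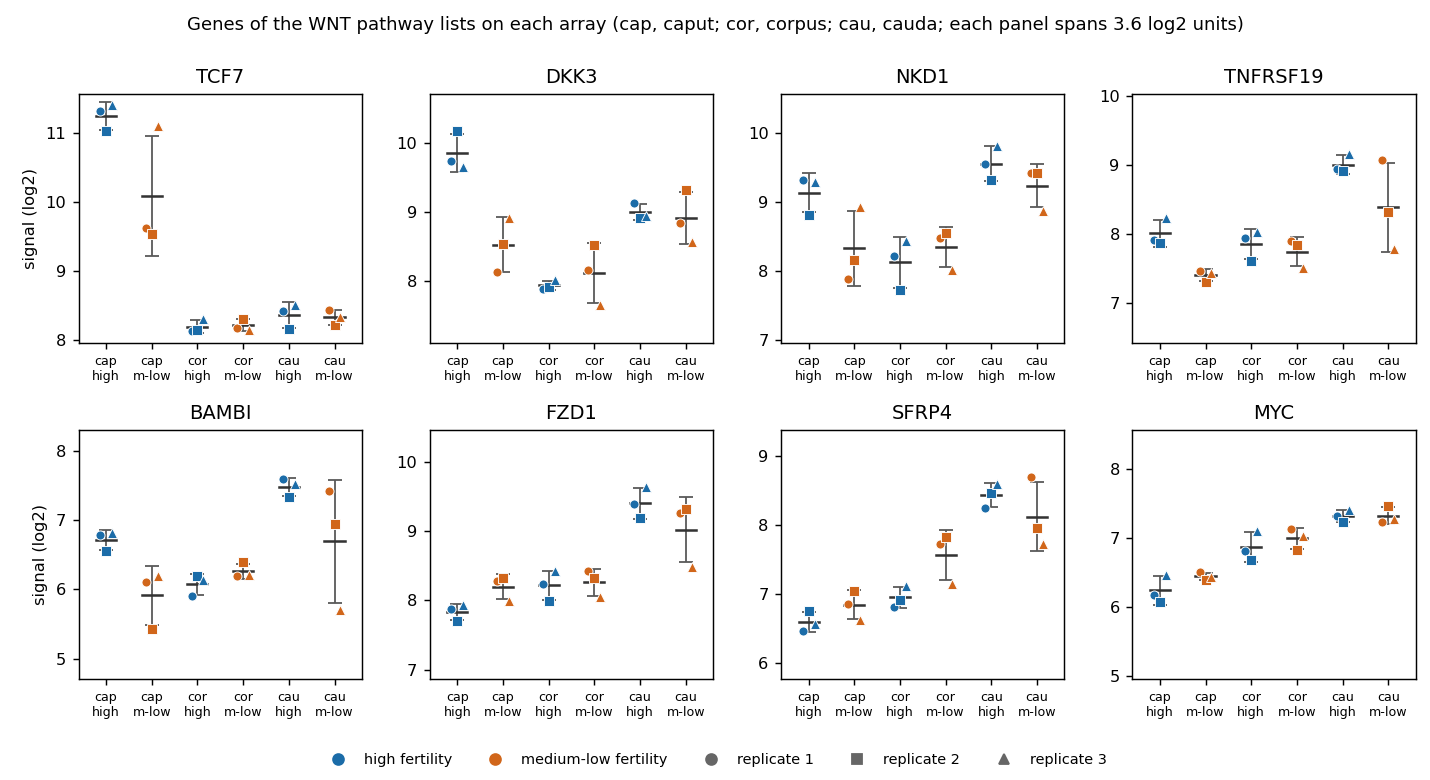
Signal (log2, y axes) of 8 WNT pathway genes on each of the 18 arrays by segment and fertility group (x axes), with group means as bars and 1 SD as whiskers (n = 3). TCF7 stands at 9.54 to 11.40 in the caput and 8.13 to 8.51 elsewhere, and FZD1 and SFRP4 are highest in the cauda.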

How the data were processed

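Total RNA, 200 ng per sample, from caput, corpus and cauda epididymidis of 6 bulls was labelled and read on a bovine gene array, 18 arrays in 6 groups of 3. The values are deposited log2 signals per probe set, for which the submitters' processing notes name RMA, Affymetrix Expression Console and Partek 6.5 without their roles. They ran from 2.56 to 14.5 with column medians of 7.26 to 7.39 and 0 missing. The number of arrays limits the precision. Annotation came from the platform table, and all 9 symbols were found in the current reference table of bovine genes.

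All 26773 probe sets were fitted together, with a mean for each of the 6 groups, by limma 3.58.1 in R 4.3.3, using Benjamini-Hochberg adjustment over all of them and a threshold of 0.05. The fit was also run on simulated arrays with planted differences. Those arrays were drawn independently, so that run does not cover arrays that share a bull. The segments come from the same 6 bulls, but the labels do not say which arrays share a bull, so p-values measure the spread between arrays and treat segments of 1 bull as independent.

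The genes, the WNT lists and the marker lists were chosen with earlier results of these data known. From each WNT list and segment comparison the text names up to 3 called genes per direction, taken by the size of the difference, and from each fertility comparison every called gene up to 3 per direction. The 5 genes most like LGR5 and the 3 most like LGR4 were taken by Pearson correlation. No sequence was used here.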

Additional observations from a re-analysis of the deposited data

Results flagged for a closer look

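BAMBI was singled out because its fertility groups did not overlap in either the caput or the corpus, in opposite directions. In the caput the medium-low bulls read 6.11, 5.43 and 6.20 against 6.79, 6.55 and 6.81 in the high bulls, a difference of -0.80 (95% confidence interval -1.47 to -0.14, adjusted p = 0.156 in limma). In the corpus they read 6.19, 6.39 and 6.21 against 5.90, 6.19 and 6.13, a difference of 0.19 (-0.47 to 0.86, adjusted p = 1.0), where the 2 nearest arrays are equal at 2 decimals. In the cauda, where the groups overlapped, the difference was -0.79 (-1.46 to -0.12, adjusted p = 0.763). The caput and corpus differences set against each other were not tested alone. The F test over all 3 segments gave an adjusted p of 0.589. It was the 1 such gene among the 48 members and named WNT genes, and arrays did not overlap between fertility groups at 18.5% of all probe sets in the caput and 11.3% in the corpus.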

How the results depend on the processing

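Of 1596 comparisons of a single gene under another setting, 1527 kept their side of the threshold, or moved by less than the spread where there was no test, 36 lost a call, 26 gained one, 6 moved and 1 called value reversed: AXIN2 in cauda minus caput, from -0.25 to 0.02 in the medium-low bulls alone. LGR4 in the corpus and the cauda against the caput kept its call under every setting that uses the adjusted p. Calling by an unadjusted p under 0.05 together with a fold of 2 or more gave 0 of the 8 genes in each segment comparison, against 3, 2 and 2, and 3, 3 and 2 of the WNT list genes, against 31, 31 and 22; by its construction it drops smaller differences. Quantile normalization on top left 1 gene in the cauda against the caput and 1 against the corpus, and cyclic loess 1 against the corpus. In the caput fertility comparison array weights called 3 of the 8 genes, against 0. There the WNT lists, with 1 call, gave 4 with 1 probe set per gene, 25 with array weights, 8 by the 2-fold rule and 0 with caput arrays alone, cyclic loess, quantile normalization, or with medium-low caput replicates 1 and 2, or these and cauda replicate 3, left out, the last chosen after seeing the data. Array weights gave 12 WNT list genes in the interaction, against 0. The cause was not tested.

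Leaving out 1 array at a time gave 3 to 4, 1 to 2 and 0 to 3 of the 8 genes in corpus against caput, cauda against caput and cauda against corpus, 0 to 3 in the caput fertility comparison and 0 to 1 in the interaction. For the WNT lists the ranges were 22 to 32, 25 to 37, 19 to 27, 0 to 25 and 0 to 15. LGR5 in the cauda against the caput ran from 1.89 to 2.34. Of all calls between corpus and caput 58.7% were higher in the corpus, but 41.1% with array medians subtracted and 47.5% with cyclic loess. With the replicate block, the 8 genes gave 4, 2 and 3 calls and the WNT lists 38, 39 and 29. LGR6 in corpus minus caput (adjusted p = 0.0446) and ZNRF3 in cauda minus corpus (adjusted p = 0.0444) were gained. Deviations of same-numbered arrays correlated at 0.071 to 0.55, 17 of 18 over 0.1, and 35 of 36 arrays and segments matched best by number, a hint from the data and not from the design that numbers are shared. Signal over background was not available, so low signals such as RSPO2, and LGR5, MYC and BAMBI in the caput, limit what can be read.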
